A study of Rattus norvegicus with 16 samples.

Results

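The 2 mitochondrial ribosomal RNA genes, Mt-rnr2 (ENSRNOG00000043866) and Mt-rnr1 (ENSRNOG00000030478), were followed across the hippocampal subfields CA1, CA2, CA3 and dentate gyrus (DG) of the rat. They were chosen by their abundance, as the 2 genes with the most counts of the 32883 genes listed, so their high level is a description and carries no test. Every library came from male Wistar rats of 3 months with no treatment, and the groups differ only in the tissue cut out by laser capture microdissection: the pyramidal layer of CA1, CA2 or CA3, or the granular layer of DG. The purpose of the study was to set the transcriptomes of these neuronal populations side by side. Total RNA was made into stranded libraries, 4 per subfield and 16 in all, and reads were counted per gene.

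Mt-rnr1 is the RNA of the small subunit of the mitochondrial ribosome and Mt-rnr2 that of the large subunit. Both are encoded by mitochondrial DNA, lie next to each other and are transcribed together, and the ribosome they form makes the few respiratory chain proteins that mitochondria encode themselves. Neurons depend heavily on mitochondrial respiration, and these RNAs are usually plentiful in total RNA from brain.

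Before any comparison, libraries of each subfield were compared with each other. Replicates 2 and 4 of CA2, and replicates 2 and 4 of DG, differed by about as little as sampling noise allows (chi-square per degree of freedom 1.0 over genes, p = 0.456, for CA2 and 1.04, p = 0.00176, for DG), whereas the other 22 pairs within a subfield lay between 2.80 and 43.5. Each such pair was summed and counted as 1 sample, which left 14 samples, 4 of CA1, 3 of CA2, 4 of CA3 and 3 of DG. Library totals ran from 3216512 to 11933279 counts. Of 12 subfield marker genes, 9 could be matched to an identifier, and all 9 were higher in every sample of their own subfield than in any other sample. The identifiers came from the study's own list of marker genes, which were picked from these same data as higher in 1 subfield. That outcome was therefore largely fixed in advance and is no independent check of the dissection. Rgs14, Pcp4 and Bok were not matched through that list, so CA2 rested on Amigo2 alone and CA3 on Fxyd7 alone. Prox1, a transcription factor of granule cells, reached 331 to 436 CPM (counts relative to the size of the library) in DG against at most 17.9 elsewhere, and Wfs1, a CA1 marker, 619 to 833 CPM in CA1 against at most 127. Markers of glia, interneurons and blood were not analysed here.

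Together the 2 rRNAs took up 21.6% of all counts of the series. Mt-rnr2 alone held 23117111 counts, or 18.7%, and Mt-rnr1 held 3544659, or 2.87%. They ranked first and second in 16 of 16 libraries. The next gene, ENSRNOG00000034234, just outside the choice, held 0.895%, so that Mt-rnr1 had 3.21 times and Mt-rnr2 20.9 times its counts. From there the abundances ran on with a much smaller step, the third gene having 1.14 times the counts of the fourth, and the genes ranked 3 to 10 held 3.87% between them.

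The share of a library held by both rRNAs varied widely within each subfield. In CA1 it was 16.1% in replicate 1, 17.6% in replicate 2, 20.5% in replicate 3 and 23.1% in replicate 4. In CA2 it was 20.5% in replicate 1, 24.4% in replicate 2, 21.5% in replicate 3 and 24.3% in replicate 4, the second and the fourth being the repeated pair. These CA2 values lay within the upper part of the CA1 range or just above it. In CA3 the share was 18.7% in replicate 1, 20.2% in replicate 2, 31.1% in replicate 3 and 24.0% in replicate 4. In DG it was 17.6% in replicate 1, 22.8% in replicate 2, 20.1% in replicate 3 and 22.9% in replicate 4, the second and the fourth again the repeated pair. The 4 subfields overlapped, and the highest value of the series, in CA3 replicate 3, stood clear of all the others. Counting error was negligible beside this spread: the exact (Clopper-Pearson) 95% binomial interval ran from 23.0% to 23.1% in the library with the fewest counts, CA1 replicate 4, and such intervals cover counting error only.

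**Figure D1:**
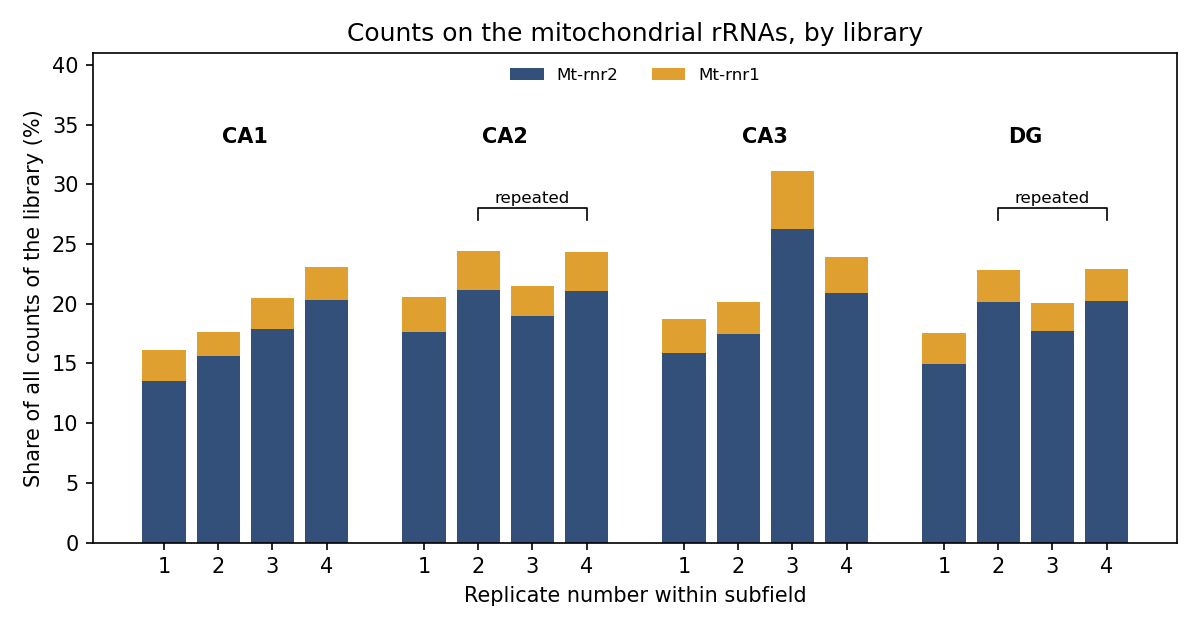
Share of all counts of each library (percent, vertical axis) held by Mt-rnr2 and Mt-rnr1, stacked, for the 4 libraries of each subfield, with brackets over the repeated pairs. The bars run from 16.1% in CA1 replicate 1 to 31.1% in CA3 replicate 3, and replicate 1 is the lowest of its subfield in all 4 subfields.

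Averaged over samples, the 2 rRNAs held the largest part of the counts in CA3 (23.5% ± 5.53 SD, n = 4), followed by CA2 (22.1% ± 1.997 SD, n = 3), DG (20.2% ± 2.66 SD, n = 3) and CA1 (19.3% ± 3.09 SD, n = 4). The differences between these means were of the size of the SDs. For Mt-rnr2 alone the mean share was highest in CA3 (20.1% ± 4.598), followed by CA2 (19.3% ± 1.73), DG (17.6% ± 2.61) and CA1 (16.8% ± 2.94). For Mt-rnr1 the order was the same, with CA3 (3.34% ± 0.995), CA2 (2.89% ± 0.398), DG (2.55% ± 0.179) and CA1 (2.50% ± 0.354). Without its replicate 3, the CA3 mean of both came to 21.0% ± 2.69, which lies between the means of DG and CA2. Without replicate 2, the column whose label carries the number 3 (ca3n3), it came to 24.6% ± 6.20, above the mean of all 4 libraries.

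Replicate 1 was low for Mt-rnr2 in every subfield. Its Mt-rnr2 share ran from 13.5% (CA1) over 14.97% (DG) and 15.9% (CA3) to 17.7% (CA2), and in 4 of 4 subfields this was the lowest of the subfield. For Mt-rnr1 the lowest share fell on replicate 1 in 0 of 4 subfields. Replicate 1 had the lowest library total in 1 of 4 subfields. The replicate number was taken as the rat, because 4 rats were used and each subfield carries the same 4 numbers, although no label says so in words. What else the numbers share was not given in the sources used here, and its part in this pattern was not tested.

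The 2 rRNAs rose and fell together from sample to sample. Over the 14 samples, the log2 CPM of Mt-rnr2 and Mt-rnr1 correlated with Pearson's r = 0.858 (Spearman's rho = 0.780), and with r = 0.788 once the mean of each subfield was taken off. Without CA3 replicate 3 the coefficient was 0.713 over 13 samples. Both values of a sample share its library and its scaling, and the coefficients are a description. The share of both rRNAs gave coefficients of opposite sign with the library total (Pearson's r = 0.0756, Spearman's rho = -0.178, n = 14).

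**Figure D2:**
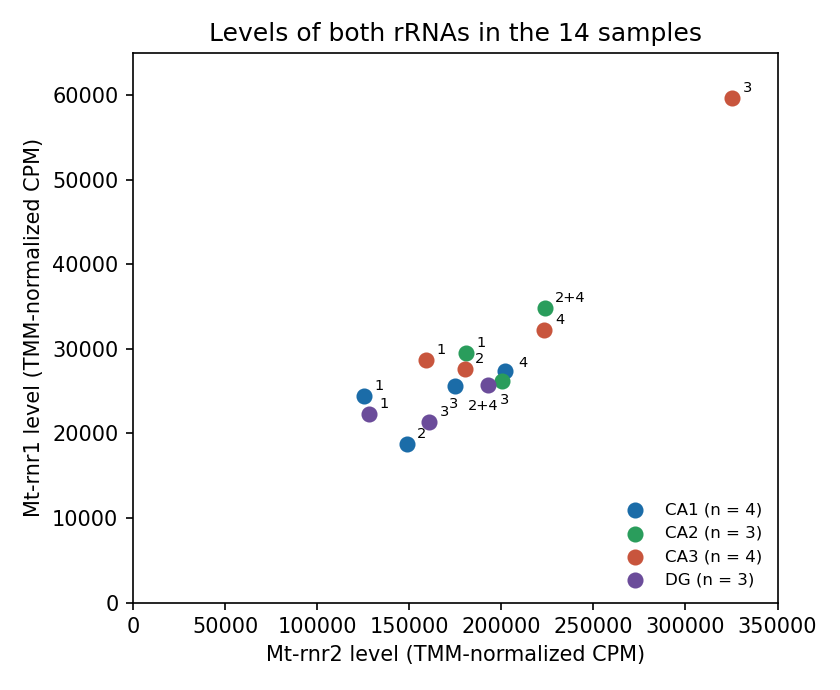
TMM-normalized level of Mt-rnr1 against that of Mt-rnr2, both in CPM on linear axes, for the 14 samples coloured by subfield and marked with their replicate number. The cloud slopes upward, and CA3 replicate 3 lies far out in the upper right corner at 325416 CPM of Mt-rnr2 and 59701 CPM of Mt-rnr1.

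The count of Mt-rnr2 divided by that of Mt-rnr1 shows how the large-subunit RNA stood to the small-subunit RNA, with no scaling of libraries involved. It is a ratio of reads and not of molecules, because the counts were not divided by gene length. In CA1 the ratio was 5.14, 7.92, 6.80 and 7.38 in replicates 1 to 4, in CA2 6.13, 6.41, 7.62 and 6.42, in CA3 5.57, 6.52, 5.45 and 6.93, and in DG 5.76, 7.49, 7.56 and 7.51. The mean was highest in DG (6.94 ± 1.02 SD, n = 3), then CA1 (6.81 ± 1.21 SD, n = 4), CA2 (6.72 ± 0.792 SD, n = 3) and CA3 (6.12 ± 0.726 SD, n = 4). All 4 subfields overlapped, and replicate 1 was the lowest in 3 of 4 of them, CA3 being the exception, where replicate 3 was slightly lower.

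No difference in this ratio between subfields was found beyond the spread of the samples. An exact permutation test over the 4 subfields, on the log2 ratio, gave p = 0.685 over 4204200 assignments, and p = 0.193 when samples were exchanged only within a replicate number and the repeated libraries were left out (exact permutation test, 2304 assignments). DG minus the pyramidal subfields came to 0.09 on the log2 scale (two-sided exact permutation test, p = 0.533). Of the 6 pairs of subfields, the difference furthest from 0 was CA3 minus DG at -0.18 (two-sided exact permutation test, p = 0.286, Benjamini-Hochberg adjusted p = 0.8), and the smallest p that this pair allows is 0.0286. CA2 against DG, with 3 samples each, cannot go below 0.1. Between CA1 and CA3, which keep all 4 numbers, the ratio was higher in CA1 in 3 of 4 numbers, by 0.14 ± 0.20 (SD, n = 4) on the log2 scale (exact sign permutation, p = 0.375, smallest possible 0.125).

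**Figure D3:**
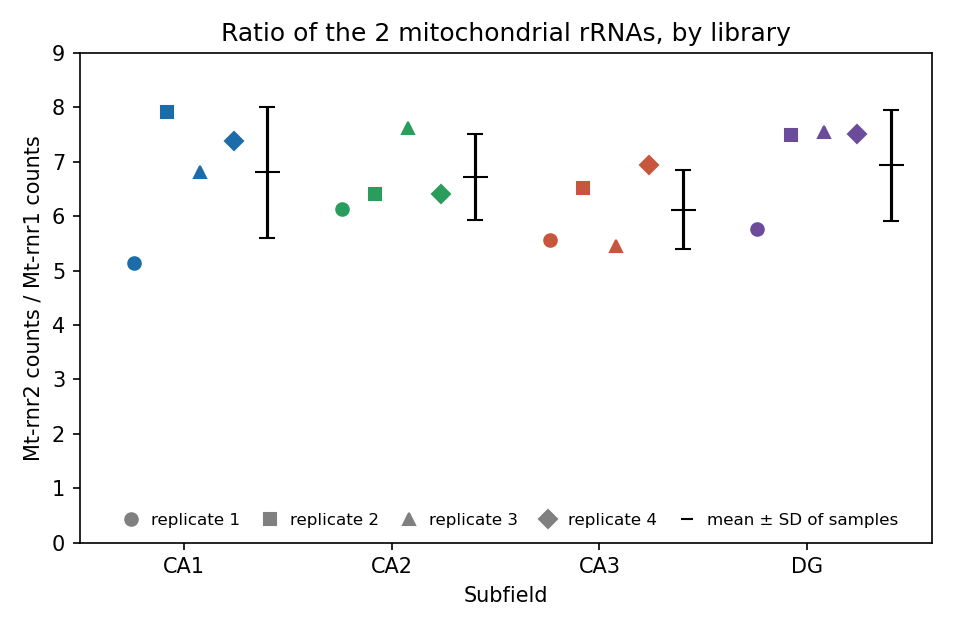
Ratio of Mt-rnr2 to Mt-rnr1 counts in each of the 16 libraries (linear axis from 0), by subfield, with the replicate number as symbol and the mean ± SD of the samples in black. The ratios lie between 5.14 and 7.92, and replicate 1 (circles) sits at or near the bottom in each subfield.

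Levels were compared after TMM scaling, which sets library sizes so that most genes do not shift between samples. Mt-rnr2 stood at 125623, 148668, 174658 and 202217 CPM in replicates 1 to 4 of CA1. In CA2 it stood at 181032 CPM in replicate 1, 223548 in the summed replicates 2 and 4 and 200149 in replicate 3. In CA3 the values were 159346, 180064, 325416 and 223435 CPM in replicates 1 to 4, and in DG 128314 in replicate 1, 193013 in the summed replicates 2 and 4 and 160976 in replicate 3. CA3 thus held the highest sample and DG and CA1 the lowest ones, but Mt-rnr2 overlapped between the groups in all 6 comparisons. The group means ordered as CA3 (222065 ± 73894), CA2 (201576 ± 21294), CA1 (162792 ± 33046) and DG (160768 ± 32350 CPM, SD).

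Mt-rnr1 stood at 24455, 18767, 25672 and 27399 CPM in replicates 1 to 4 of CA1. In CA2 it stood at 29508 CPM in replicate 1, 34857 in the summed replicates 2 and 4 and 26254 in replicate 3. In CA3 the values were 28632, 27598, 59701 and 32225 CPM, and in DG 22279 in replicate 1, 25753 in the summed replicates 2 and 4 and 21305 in replicate 3. Every CA3 sample lay above every CA1 and every DG sample, if only narrowly at the lower end, and every CA2 sample lay above every DG sample. The group means took the same order as for Mt-rnr2, with CA3 (37039 ± 15237) before CA2 (30206 ± 4344), CA1 (24073 ± 3738) and DG (23112 ± 2338 CPM, SD). Without the replicate block, neighbours in either order did not differ beyond their spread: the adjusted p of edgeR was 0.808 and 0.513 for CA3 and CA2, 0.351 and 0.323 for CA2 and CA1, and 0.962 and 0.868 for CA1 and DG, for Mt-rnr2 and Mt-rnr1 in turn. With the replicate number as a block in edgeR and no repeated libraries, Mt-rnr1 passed between CA3 and CA2 (adjusted p = 0.0334). Only numbers 1 and 3 of CA2 and of DG were left there, and between CA2 and CA3 these 2 numbers went opposite ways. In that fit Mt-rnr2 did not pass between CA2 and CA1 (adjusted p = 0.175). It passed there with all 16 libraries in the block (adjusted p = 0.0188), which counts the repeated libraries as separate ones. It also passed with CA3 replicate 3 left out as well (adjusted p = 0.000713), a fit chosen after seeing the data.

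In CA1vsCA3, Mt-rnr1 was 1.54-fold higher in CA3 (log2 fold change -0.62 ± 0.19 SE, adjusted p = 0.0176), past the threshold of 0.05. In the same comparison 24.8% of the 17174 genes tested were called, and for 24.3% of them the groups did not overlap, as for Mt-rnr1. Mt-rnr2 had a log2 fold change of -0.45 ± 0.18 SE (adjusted p = 0.0818) and was not called, though it was without CA3 replicate 1 (-0.58, adjusted p = 0.0206) and without CA1 replicate 4 (-0.57, adjusted p = 0.0441). The call of Mt-rnr1 was lost without CA3 replicate 3 (-0.29, adjusted p = 0.117) and without CA1 replicate 2 (-0.52, adjusted p = 0.0733), and with DESeq2 (-0.61, adjusted p = 0.0673). Without CA3 replicate 2 it was -0.74 (adjusted p = 0.00764).

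Set within replicate numbers, both rRNAs were higher in CA3 than in CA1 in 4 of 4 numbers. The log2 difference, CA1 minus CA3, ran from -0.90 to -0.14 for Mt-rnr2 and from -1.22 to -0.23 for Mt-rnr1. With the replicate number as a block and the repeated libraries left out, both were called, Mt-rnr2 at -0.43 ± 0.10 SE (adjusted p = 0.000813) and Mt-rnr1 at -0.59 ± 0.12 SE (adjusted p = 0.000256). In this fit 5606 of the 16720 genes tested were called. With CA3 replicate 3 left out as well, the block gave smaller values that were still called, -0.23 ± 0.06 SE (adjusted p = 0.00405) and -0.31 ± 0.07 SE (adjusted p = 0.000536). Of all genes, 5240 of 16562 were then called. Under every alternative run, the direction in CA1vsCA3 was the same for both rRNAs.

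In CA3vsDG the picture was similar. Mt-rnr1 was 1.60-fold higher in CA3 (log2 fold change 0.68 ± 0.20 SE, adjusted p = 0.0110), beside 40.2% of all genes called and 42.6% without overlap, and Mt-rnr2 stood at 0.47 ± 0.20 SE (adjusted p = 0.0694). Without CA3 replicate 3 the call of Mt-rnr1 was lost (0.35, adjusted p = 0.0506), as it was without DG replicate 3 (0.60, adjusted p = 0.0561). Without CA3 replicate 2 it was 0.80 (adjusted p = 0.00461), and Mt-rnr2 was then called as well (0.55, adjusted p = 0.0448), as it was without CA3 replicate 1 (0.57, adjusted p = 0.0221). With the replicate block and no repeated libraries both were called, Mt-rnr2 at 0.55 ± 0.13 SE (adjusted p = 0.000967) and Mt-rnr1 at 0.85 ± 0.16 SE (adjusted p = 8.22e-05). In this fit 6796 of the 16720 genes tested were called. Leaving out CA3 replicate 3 too kept both calls, at 0.28 ± 0.08 SE (adjusted p = 0.00784) and 0.46 ± 0.09 SE (adjusted p = 0.000122). Of all genes, 6066 of 16562 were then called. Only numbers 1 and 3 could be set side by side in this comparison, and CA3 was the higher in both for each rRNA.

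In CA2vsDG neither rRNA was called, with log2 fold changes of 0.33 ± 0.21 SE for Mt-rnr2 (adjusted p = 0.252) and 0.39 ± 0.21 SE for Mt-rnr1 (adjusted p = 0.176), although 35.4% of genes were. The CA2 and DG samples of Mt-rnr1 did not overlap, which held for 47.5% of all genes. With the replicate block and no repeated libraries Mt-rnr2 was called as higher in CA2 (0.38 ± 0.14 SE, adjusted p = 0.0287) and Mt-rnr1 was not (0.33 ± 0.17 SE, adjusted p = 0.134). This fit kept only numbers 1 and 3 of CA2 and of DG, 2 libraries each, and took the spread from all subfields. It called 6230 of 16720 genes. When CA3 replicate 3, which is no sample of this comparison but enters the shared estimate of the spread, was also left out, both were called at 0.39 ± 0.08 SE (adjusted p = 0.000104) and 0.33 ± 0.09 SE (adjusted p = 0.00179). Of all genes, 6756 of 16562 were then called, again from 2 libraries of CA2 and 2 of DG.

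Without the replicate block, the other 3 comparisons gave no call. CA1vsCA2, with 14.3% of genes called, gave -0.31 ± 0.20 SE for Mt-rnr2 (adjusted p = 0.351) and -0.33 ± 0.20 SE for Mt-rnr1 (adjusted p = 0.323). The block without repeated libraries left it uncalled (-0.26, adjusted p = 0.175, and -0.07, adjusted p = 0.843), and Mt-rnr2 passed only once CA3 replicate 3 was also left out (-0.33, adjusted p = 0.000713) or when all 16 libraries entered the block (-0.36, adjusted p = 0.0188). Those fits called 3587 of 16562 and 3850 of 17174 genes in turn. CA2vsCA3, with 7.65% called, gave -0.14 ± 0.20 SE (adjusted p = 0.808) and -0.29 ± 0.20 SE (adjusted p = 0.513), and its sign turned without CA3 replicate 3, to 0.09 and 0.02. Under the block Mt-rnr1 was called in CA2vsCA3 (-0.52, adjusted p = 0.0334), a call that was lost without that library (-0.13, adjusted p = 0.535). Only numbers 1 and 3 could be set side by side here, and they disagreed. For Mt-rnr1, CA2 was higher in number 1 (0.04) and CA3 in number 3 (-1.19). CA1vsDG, with 29.4% called, gave values near 0, 0.02 ± 0.20 SE (adjusted p = 0.962) and 0.06 ± 0.20 SE (adjusted p = 0.868). Over members and comparisons, 2 of 12 fold changes were called in the fit without the replicate block, both of Mt-rnr1. With the block and no repeated libraries, Mt-rnr2 was called too, in CA1vsCA3, CA2vsDG and CA3vsDG, and Mt-rnr1 also in CA2vsCA3. Of the 16720 genes tested in that fit, 5606 were called in CA1vsCA3, 6230 in CA2vsDG, 6796 in CA3vsDG and 1569 in CA2vsCA3. Whether Mt-rnr1 and Mt-rnr2 changed to different extents is the test of their ratio given above, which found no difference. The tissue is a cut-out layer, so fewer cells of a type and less RNA per cell cannot be told apart here.

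**Figure D4:**
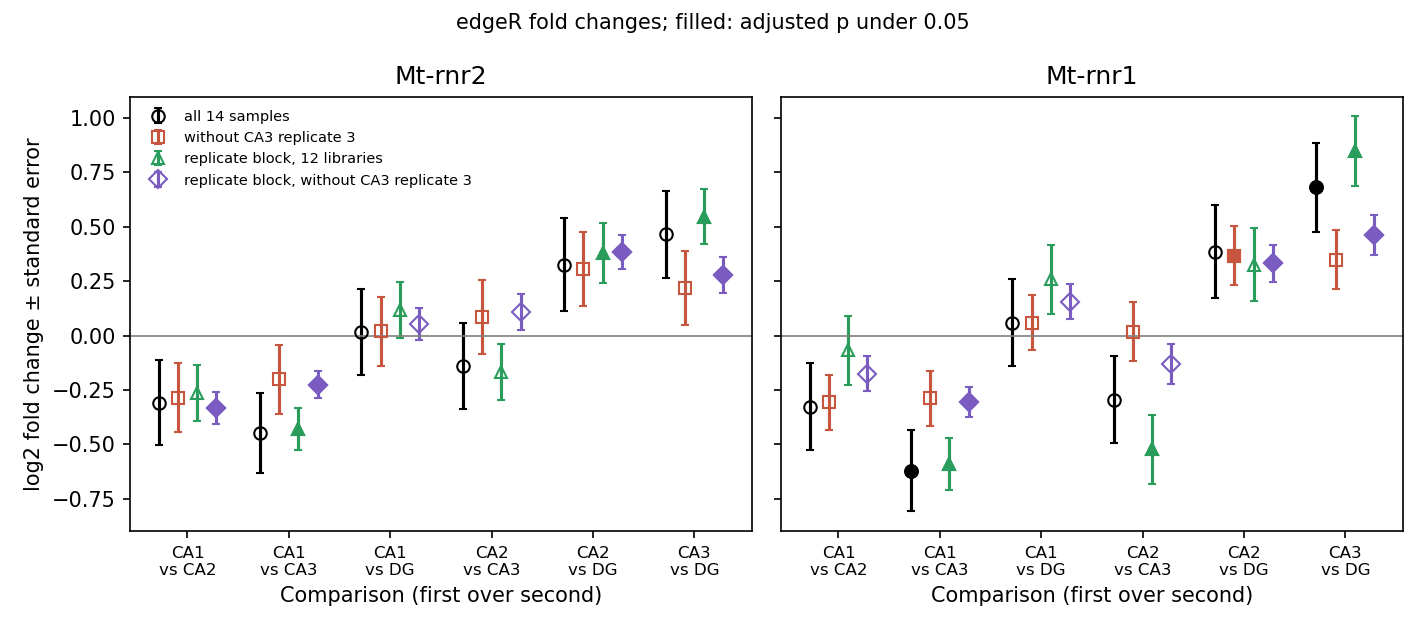
log2 fold change ± standard error (from the edgeR F statistic) of Mt-rnr2 (left) and Mt-rnr1 (right) in the 6 comparisons, first subfield over second. The fits used all 14 samples, or all but CA3 replicate 3. The others had the replicate number as a block with the repeated libraries left out (12 libraries), or with CA3 replicate 3 left out too. Filled symbols passed an adjusted p of 0.05, and the comparisons CA1vsCA3 and CA3vsDG move toward 0 without CA3 replicate 3, from -0.62 to -0.29 and from 0.68 to 0.35 for Mt-rnr1.

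The genes whose pattern over the 14 samples was most like that of each rRNA were looked for among the other 8869 genes with a mean of at least 10 CPM, by Pearson's r of the log2 CPM. For Mt-rnr2 the highest coefficient was 0.879, of ENSRNOG00000033372, and for Mt-rnr1 it was 0.9004, of ENSRNOG00000017446, against medians over these genes of 0.03 and 0.05. Neither identifier is paired with a symbol in the sources used here. All values of a sample share its library, and the coefficients are a description.

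The SD of both rRNAs within subfields was above the median of the abundant genes, and for Mt-rnr1 much of it rested on 1 library. The SD on the log2 scale was 0.33 for each, against a median of 0.15 over the 1760 genes with a mean of at least 100 CPM. Of these genes, 75 (4.26%) had a larger SD than Mt-rnr2 and 72 (4.09%) a larger one than Mt-rnr1. Without CA3 replicate 3 the SD was 0.26 for Mt-rnr2 and 0.19 for Mt-rnr1, against a median of 0.14, and 164 (9.32%) and 453 (25.7%) of the genes had a larger one. As a whole library CA3 replicate 3 gave 17.2 to 43.5 in the chi-square comparison with the other CA3 libraries, with the members counted among the genes.

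Because the 2 rRNAs took such an uneven part of each library, leaving them out of the library totals moved every other gene. The CPM of any other gene rose by a factor of 1.19 in CA1 replicate 1 and of 1.45 in CA3 replicate 3. The mean shift over the samples of a subfield, on the log2 scale, was 0.39 for CA3, 0.36 for CA2, 0.33 for DG and 0.31 for CA1. Between subfields it differed by at most 0.08, in CA1vsCA3. Without CA3 replicate 3 the CA3 mean was 0.34, below that of CA2, the CA1vsCA3 difference was 0.03 in size, and the widest gap was 0.05, in CA1vsCA2. The totals themselves became no more even, the highest being 3.71 times the lowest with the rRNAs and 3.85 times without.

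With plain library totals the median fold change of all genes was away from 0, and part of that came with the rRNAs. The median log2 fold change of CA3vsDG was -0.26 with the rRNAs in the totals and -0.20 without them, and that of CA1vsCA3 was 0.17 and 0.09. For CA1vsCA2 it was 0.11 and 0.06, for CA2vsCA3 0.06 and 0.03, and for CA2vsDG -0.20 and -0.17. CA1vsDG went the other way, from -0.09 to -0.11. The balance of calls moved with it: in CA1vsCA3, 71.6% of called genes were higher in CA1 with the rRNAs in the totals and 61.2% without, and in CA3vsDG 28.9% and 34.0% were higher in CA3. In CA1vsCA3, 478 of the 4335 genes called with the rRNAs in the totals were no longer called without them, and 435 others were.

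TMM scaling by its construction centres most genes near no change. Its effective library sizes with and without them differed by at most 0.04 on the log2 scale. The share of calls that were higher in the first subfield was furthest apart in CA1vsDG, at 51.6% with them and 47.9% without, so that the larger side turned, and in CA2vsDG, at 53.5% and 50.2%. It was 48.9% and 48.0% in CA1vsCA3, and 51.1% and 49.0% in CA3vsDG, where the larger side turned too. In CA3vsDG, 6748 genes were called in both, of 6910 with the rRNAs and 6887 without. The TMM factors took up the difference, ranging from 0.808, in CA3 replicate 3, to 1.17 with the rRNAs and from 0.933 to 1.10 without. For the rRNAs themselves, plain totals lowered the CA3vsDG value of Mt-rnr1 from 0.68 to 0.39 (adjusted p = 0.05004, just over the threshold).

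**Figure D5:**
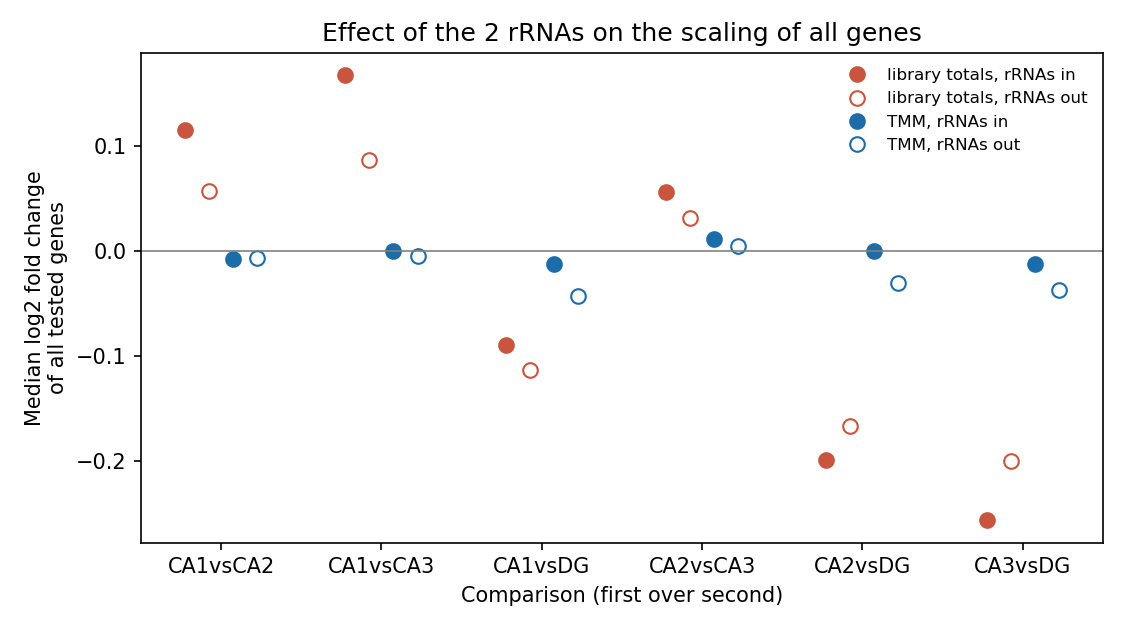
Median log2 fold change of all genes tested, for the 6 comparisons, with library totals that include the 2 rRNAs, library totals that leave them out, and TMM scaling with and without them. With TMM, which centres most genes, the medians stay near 0, and with library totals they reach 0.17 in CA1vsCA3 and -0.26 in CA3vsDG and lie nearer to 0 without the rRNAs in 5 of 6 comparisons.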

How the data were processed

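The members and the gene lists were chosen with earlier results of these data known. Per the labels and the methods of the study, pyramidal or granular layers were cut from frozen sections by laser capture, total RNA was made into stranded libraries (TruSeq Stranded Total RNA) and reads were aligned with STAR to the rat genome Rnor6. The deposited values used here are raw counts of reads per Ensembl gene, from 1 table with 16 columns, all of which were used. The counting program, the use of strand, the treatment of reads with several matches and the removal of rRNA are not given in the sources used here, and each can change the share of an abundant rRNA. The submitters' processing notes name DESeq2 3.12. Further files with the authors' own comparisons (fold changes, p-values) were not used.

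Shares, ratios and exact permutation tests were computed with Python 3.11.15 (scipy 1.17.1, pandas 2.3.3, numpy 2.4.6). Figures were drawn with matplotlib 3.10.9. Library totals ran from 3216512 to 11933279 counts, which bounds each share closely (counting error only). Libraries of a subfield with a chi-square per degree of freedom under 1.5 were summed and counted once. Genes with more than 10 counts in all, 17174, were tested with the quasi-likelihood test of edgeR 4.0.16 (R 4.3.3, limma 3.58.1), TMM scaling, 4 subfields in 1 fit and Benjamini-Hochberg adjustment over all genes, at a threshold of 0.05. CPM on the log2 scale had a prior count of 2. The standard error of an edgeR fold change was derived as its absolute log2 value over the square root of the F statistic. The scripts were tested on simulated counts. No label names the animal of a library, and where the numbers mark no separate rats, p-values measure only the spread between these samples. Alternatives were other scalings, filters and samples, DESeq2 1.42.0, and the replicate number as a block. The number was taken as the rat, from the methods (4 rats, every subfield collected). Deviations from the subfield means correlated above 0.1 in 12 of 14 same-numbered pairs without the repeated libraries (median 0.318, lowest -0.127, 8821 genes), against a median of -0.137 between numbers. The likeness rested mainly on number 1, whose pairs ran from 0.621 to 0.695. Those of the other numbers ran from -0.127 to 0.339, and a pair of unlike numbers, CA3 replicate 2 with DG replicate 3, reached 0.419. Taking off subfield means in itself lowers the coefficients between numbers when same-numbered libraries are alike. Named were the 2 members, the most abundant gene after them and the gene most like each in pattern. The design also listed the 10 most abundant genes and 5 genes like each member, of which those without a symbol are summarised. Mitochondrial mRNAs and tRNAs, mitochondrial ribosome proteins, respiratory chain genes and markers of other cell types could not be matched to identifiers with the tables at hand and were not analysed here. No sequence of the members was at hand and none is shown.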

Additional observations from a re-analysis of the deposited data

Results flagged for a closer look

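In the 2 subfields with 4 samples, CA1 and CA3, the highest or lowest sample was set against the others by Dixon's test, in 12 combinations of subfield and measure. About 1 in 20 such tests is passed by chance. Of these, 2 passed, and both concern the share of a library held by Mt-rnr1. In CA3, replicate 3 held 4.82%, against 2.68% to 3.02% in the other 3 libraries, and in CA1, replicate 2 held 1.97%, against 2.63% to 2.75% in the other 3. The Mt-rnr2 share of the same CA3 library, 26.3%, did not pass, and that of the CA1 library, 15.6%, lay within its group.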

How the results depend on the processing

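All values here are log2 fold changes unless named otherwise, and alternatives that were chosen after seeing the data are those that leave out replicate number 1 of every subfield, leave out the repeated libraries with no block, add the block to the ratio test, or leave CA3 replicate 3 out of the block, the SD within subfields or the shift of the other genes. With 16 libraries in the replicate block, Mt-rnr2 was also called in CA1vsCA2 (-0.36), CA1vsCA3 (-0.44), CA2vsDG (0.31) and CA3vsDG (0.39), and Mt-rnr1 in CA2vsDG (0.40); this fit counts the repeated libraries as separate ones. With the block and no repeated libraries, Mt-rnr2 was called in CA1vsCA3 (-0.43), CA2vsDG (0.38) and CA3vsDG (0.55), and Mt-rnr1 in CA2vsCA3 (-0.52). With CA3 replicate 3 left out of that block too, Mt-rnr2 was called in CA1vsCA2 (-0.33), CA1vsCA3 (-0.23), CA2vsDG (0.39) and CA3vsDG (0.28), Mt-rnr1 in CA2vsDG (0.33), and Mt-rnr2 changed sign in CA2vsCA3 (0.11). The block changed no other call of the rRNAs. With no filter, Mt-rnr2 was called in CA1vsCA3 (-0.45) and CA3vsDG (0.44), as it was without replicate number 1 (-0.48 and 0.46), and without the repeated libraries it was called in CA3vsDG (0.58). Mt-rnr1 lost its call in CA1vsCA3 with DESeq2 (-0.61), and in CA3vsDG with library totals with the rRNAs (0.39) and without them (0.48). In CA1vsDG, where values lay near 0, Mt-rnr2 changed sign with library totals (-0.066 with and -0.078 without the rRNAs), TMM without them (-0.010), 16 libraries (-0.039), the 16-library block (-0.048), no filter (-0.015) and without replicate number 1 (-0.018), and Mt-rnr1 with library totals (-0.029 and -0.041). Over the fits that each leave out 1 sample, Mt-rnr2 ranged from -0.58 to -0.20 in CA1vsCA3, from 0.22 to 0.58 in CA3vsDG, from 0.16 (without DG replicate 1) to 0.44 in CA2vsDG, from -0.43 to -0.20 (without CA1 replicate 1) in CA1vsCA2, from -0.15 to 0.14 in CA1vsDG and from -0.27 to 0.086 in CA2vsCA3. Mt-rnr1 then ranged from -0.74 to -0.29 in CA1vsCA3, from 0.35 to 0.80 in CA3vsDG, from 0.25 to 0.45 in CA2vsDG, from -0.42 to -0.19 (without CA2 replicates 2 and 4) in CA1vsCA2, from -0.018 to 0.16 in CA1vsDG and from -0.42 to 0.018 in CA2vsCA3. CA2vsDG of Mt-rnr1 was called without CA3 replicate 3 (0.37, adjusted p = 0.0411). The log2 ratio of the rRNAs ranged from -0.073 to 0.14 in CA1vsCA2, from -0.16 to 0.095 in CA1vsDG and from -0.17 to 0.027 in CA2vsDG. Counts of genes called moved by over 1.5 times only in CA1vsCA2 (3850 with the 16-library block, against 2455) and CA2vsCA3 (2616 with it, 860 without the repeated libraries and no block, against 1313). The shares of both rRNAs moved by less than 1 SD in all 18 alternatives run. Most of these left out 1 sample, which cannot move the mean of 3 or 4 samples by as much as 1 SD. The other alternatives took the genes ranked 3 to 10, with 3.87% of all counts, out of the denominator. That raises a share by too little to reach even the smallest SD, 1.997 in CA2. These outcomes were therefore fixed in advance and are no check of the shares. The cause of these shifts was not tested. The ratio of mitochondrial rRNAs to mRNAs was not run, since the mRNAs could not be matched. Depth limits none of the rRNA values, which rest on 88591 counts or more per library.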
